A study of Mus musculus with 12 samples.

Results

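Mast cell gene expression was compared in ankle joints of mice with and without Mmp8 (collagenase-2), between control mice and separate mice with serum-transfer arthritis. The 9 genes were Cpa3, Mcpt4, Cma1, Tpsb2, Tpsab1, Kit, Fcer1a, Ms4a2 and Hdc, 9 of 19938 genes that had an array feature named with their symbol alone. A gene was read from that feature, or from the one with the highest mean signal where several carried its symbol. Bulk RNA from the ankle joint of 12 mice labelled male, one array each, gave 3 mice in each of 4 groups, which were Mmp8+/+ control, Mmp8-/- control, Mmp8+/+ arthritic and Mmp8-/- arthritic. Mmp8-/- mice lack the gene in every cell, and the null allele had been crossed to C57BL/6 for 12 generations. Mice were 6 to 8 weeks old at transfer. Arthritic mice received 150 µl of K/BxN serum intraperitoneally on days 0 and 2 and were killed on day 7, and no mock injection is described for the control mice. K/BxN serum holds autoantibodies to glucose-6-phosphate isomerase, which deposit in joints and start an arthritis that does not need the recipient's lymphocytes.

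Mast cells are tissue-resident cells of the blood lineage that lie along vessels and nerves and are found in the synovium and the surrounding connective tissue. Their growth and survival depend on stem cell factor, the ligand of the receptor tyrosine kinase Kit. They bind immunoglobulin E through the high-affinity receptor, made of an alpha chain (Fcer1a), a beta chain (Ms4a2) and a gamma chain shared with other Fc receptors (Fcer1g), and on activation they empty granules that store proteases, heparin and histamine. The granule proteases are carboxypeptidase A3 (Cpa3), the chymases encoded by Mcpt4 and Cma1 and the tryptases encoded by Tpsb2 and Tpsab1, and histamine is made by histidine decarboxylase (Hdc).

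The start regions of the genes on which the results turn are printed here, because Cpa3 and Mcpt4 varied together between mice and Kit, Ms4a2 and Hdc differed between control and arthritic ankles. Each is the 250 bases before the gene start in RefSeq on GRCm38.p6, written 5′ to 3′ on the strand of the gene. They lie at chr3:20242182-20242431 (Cpa3, minus strand), chr14:56062311-56062560 (Mcpt4, minus strand), chr5:75574737-75574986 (Kit, plus strand, the first of its listed starts), chr19:11623720-11623969 (Ms4a2, minus strand) and chr2:126618679-126618928 (Hdc, minus strand). Capitals mark GATAA and GATAG, the core letters read by GATA factors, and CATGTG, an E-box of the kind read by MITF. Each motif was searched on both strands, so capitals also mark reverse complements. No 2 matches overlapped.
Cpa3: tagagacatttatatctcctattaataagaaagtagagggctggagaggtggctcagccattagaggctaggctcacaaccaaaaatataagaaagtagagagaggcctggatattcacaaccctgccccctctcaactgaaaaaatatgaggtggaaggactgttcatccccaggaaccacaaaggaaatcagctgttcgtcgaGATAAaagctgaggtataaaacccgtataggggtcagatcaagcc
Mcpt4: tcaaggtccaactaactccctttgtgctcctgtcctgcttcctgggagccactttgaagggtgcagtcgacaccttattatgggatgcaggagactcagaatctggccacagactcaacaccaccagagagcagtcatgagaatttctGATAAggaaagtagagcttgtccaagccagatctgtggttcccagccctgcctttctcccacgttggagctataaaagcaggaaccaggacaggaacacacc
Kit: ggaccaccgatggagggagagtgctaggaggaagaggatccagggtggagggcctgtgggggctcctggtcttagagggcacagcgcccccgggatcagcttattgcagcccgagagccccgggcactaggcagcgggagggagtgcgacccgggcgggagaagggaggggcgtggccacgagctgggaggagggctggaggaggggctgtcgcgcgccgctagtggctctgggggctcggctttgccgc
Ms4a2: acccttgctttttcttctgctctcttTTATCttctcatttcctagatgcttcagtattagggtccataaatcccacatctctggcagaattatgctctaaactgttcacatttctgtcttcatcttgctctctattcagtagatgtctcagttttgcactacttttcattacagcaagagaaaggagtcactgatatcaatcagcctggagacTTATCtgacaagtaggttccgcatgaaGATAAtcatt
Hdc: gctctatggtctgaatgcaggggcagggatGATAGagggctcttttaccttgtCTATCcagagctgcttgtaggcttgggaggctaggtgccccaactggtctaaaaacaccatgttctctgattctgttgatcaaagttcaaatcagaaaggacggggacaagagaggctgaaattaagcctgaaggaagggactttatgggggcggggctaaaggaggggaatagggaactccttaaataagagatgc

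Cpa3 held 1 GATAA, 45 bases before the start, and Mcpt4 held 1 GATAA, 102 bases before it. Ms4a2 held 3 GATAA, at 224, 37 and 10 bases, Hdc held 2 GATAG, and Kit held none of the 3 motifs. Among 32851 promoters of this length, 22.6% held GATAA, 20.6% GATAG and 12.3% CATGTG, and 10.8% held 2 or more GATAA or GATAG. Of the other members, Cma1 and Fcer1a had an entry in the promoter table, and Tpsb2 and Tpsab1 were not among the 7 matched. Cma1 held the first 2 of these motifs, and Fcer1a held the first and the E-box. Neither gene was called changed, so matches were not limited to genes that changed. At least 1 of the first 2 motifs was held by 37.45% of the promoters. These matches describe letters in a short window.

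On 2 points the arrays went against their labels. Mmp8 read 10.21 to 11.16 in log2 signal on the 6 Mmp8+/+ arrays and 4.64 to 5.54 on 5 Mmp8-/- arrays, but 10.65 on the array labelled Mmp8-/- control mouse 2. Xist, a transcript of female cells, read 10.42 and 10.92 on the arrays labelled Mmp8+/+ control mouse 1 and Mmp8-/- control mouse 1, and 4.66 to 5.41 on the other 10 arrays, against the label of male mice. The mice of a group are numbered here in the order of deposit, as names that pair no mice. All 3 are control arrays, so changes of the mast cell genes and of most other named genes were also computed without them. Counts and means over gene lists, shares of all features, spreads and correlations rest on all 12 arrays. The calls of Kitl, Fcer1g and Slc18a2 were not recomputed either. Signals are deposited log2 values, array medians lay between 6.74 and 6.82, and 1 unit is a doubling. The features' levels cannot be ordered between genes, since probes differ in brightness. A gene was called changed at a false discovery rate of 5% in limma over 18479 named features with a mean signal of at least 5.3, and errors are SE for changes and SD (n = 3) for group means.

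Arthritis left the granule protease genes without a called change in either genotype, while Kit and Ms4a2 fell and Hdc rose in both. Of the 7 members that passed the filter on signal, 1 rose (Hdc), 1 fell (Kit) and 5 did not pass the test in Mmp8+/+ mice, and the counts in Mmp8-/- mice were the same with the same 2 genes. Among all tested features, 18.9% were called in Mmp8+/+ mice (7.2% higher and 11.7% lower) and 21.6% in Mmp8-/- mice (7.92% higher and 13.7% lower). With 2 of 7 members called, 28.6%, the members were not far from that background. Averaged over the genotypes, again Hdc was called higher and Kit lower, where 42.1% of features were called (19.5% higher and 22.7% lower). The median change of the 7 tested members was 0.19 in Mmp8+/+ and -0.07 in Mmp8-/- mice, against 0.01 and -0.01 for all tested features. Fcer1a and Ms4a2 lay under the filter and were read from a fit to all 23410 named features, in which 8.82% were called lower in Mmp8+/+ mice, 10.1% in Mmp8-/- mice and 18% on average over the genotypes. In bulk ankle RNA, fewer mast cells and less RNA of a gene per mast cell cannot be told apart.

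**Figure D1:**
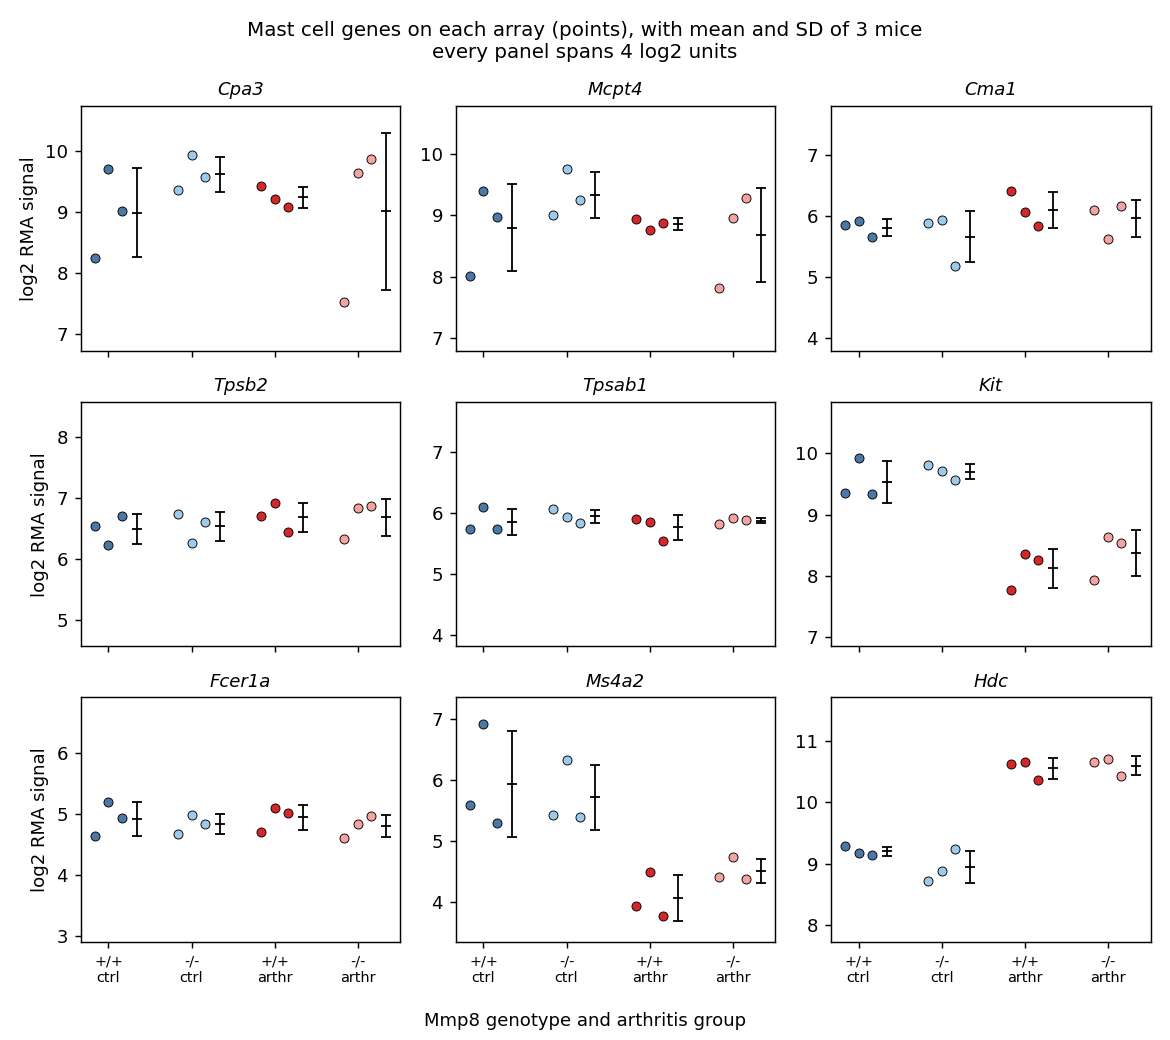
Log2 RMA signal (vertical axis, 4 log2 units in every panel) of each mast cell gene on each of the 12 arrays, in the order Mmp8+/+ control, Mmp8-/- control, Mmp8+/+ arthritic and Mmp8-/- arthritic; points are single mice and bars are mean and SD of 3 mice. Control and arthritic arrays do not overlap for Kit (9.33 to 9.92 against 7.76 to 8.64), Ms4a2 (5.296 to 6.92 against 3.78 to 4.74) and Hdc (8.72 to 9.28 against 10.36 to 10.71), and overlap for the other 6 genes. The share of all features that separate in this way was not computed. Averaged over the genotypes, 42.1% of tested features were called, which is a different measure from separation.

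Cpa3 encodes the carboxypeptidase that mast cells store bound to heparin. Its log2 signal was 8.25, 9.70 and 9.02 in Mmp8+/+ control, 9.36, 9.93 and 9.57 in Mmp8-/- control, 9.43, 9.21 and 9.09 in Mmp8+/+ arthritic and 7.53, 9.65 and 9.86 in Mmp8-/- arthritic mice. The groups overlapped, the lowest array was an arthritic Mmp8-/- mouse and the next lowest a Mmp8+/+ control mouse. The change with arthritis was 0.26 (SE 0.48, 95% interval -0.76 to 1.27) in Mmp8+/+ mice, adjusted p = 0.735, and -0.61 (interval -1.63 to 0.41) in Mmp8-/- mice, adjusted p = 0.360. Without the lowest array, Mmp8-/- arthritic mouse 1, the change in Mmp8-/- mice turned to 0.13 (adjusted p = 0.816), so its direction rests on that mouse. The intervals run from a loss by more than a log2 unit in Mmp8-/- mice to a gain of the same order in Mmp8+/+ mice. With 3 mice per group, changes of that size were not excluded.

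Mcpt4, the chymase of connective tissue mast cells, followed the same mice. Its signal was 8.01, 9.41 and 8.97 in Mmp8+/+ control, 9.01, 9.75 and 9.25 in Mmp8-/- control, 8.95, 8.76 and 8.88 in Mmp8+/+ arthritic and 7.82, 8.96 and 9.28 in Mmp8-/- arthritic mice. The same 2 mice were lowest as for Cpa3, and the groups overlapped. The change was 0.06 (SE 0.36, 95% interval -0.71 to 0.84) in Mmp8+/+ mice, adjusted p = 0.921, and -0.65 (interval -1.43 to 0.13) in Mmp8-/- mice, adjusted p = 0.200. Without Mmp8-/- arthritic mouse 1 the change in Mmp8-/- mice was -0.21 (adjusted p = 0.698). Without the 2 arrays with Xist signal the change in Mmp8+/+ mice was -0.33 for Mcpt4 and -0.11 for Cpa3, with adjusted p of 0.574 and 0.909.

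Cma1, the chymase that is stored together with carboxypeptidase A3, read between 5.18 and 6.41 over the 12 arrays. Its change was 0.29 (SE 0.22, adjusted p = 0.372) in Mmp8+/+ mice and 0.30 (SE 0.22, adjusted p = 0.339) in Mmp8-/- mice, with overlapping groups. The tryptase gene Tpsb2 read 6.22 to 6.92 and changed by 0.19 (SE 0.20, adjusted p = 0.512) and 0.14 (SE 0.20, adjusted p = 0.619). Tpsab1 encodes a second tryptase, whose protein C57BL/6 mice lack through a splice site variant. Its feature read 5.53 to 6.10, with changes of -0.09 (SE 0.16, adjusted p = 0.713) and -0.07 (SE 0.16, adjusted p = 0.770). The tryptase genes are close copies of each other, and hybridization of one transcript to the other's probes was not tested. For these 3 genes, no 95% interval from all 12 arrays reached 1 log2 unit in either direction. The widest were those of Cma1, -0.19 to 0.77 in Mmp8+/+ and -0.18 to 0.77 in Mmp8-/- mice. Without the 3 doubtful arrays, which leaves 1 Mmp8-/- control mouse, the change of Cma1 in Mmp8-/- mice was 0.78. The features of Cma1 and Tpsab1 lay at the 35.2nd and 34.8th percentile of all features by mean signal, where background can compress a change.

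Kit encodes the receptor for stem cell factor and fell in every arthritic group. Its signal was 9.35, 9.92 and 9.33 in Mmp8+/+ control and 9.81, 9.72 and 9.57 in Mmp8-/- control mice, against 7.76, 8.35 and 8.26 in Mmp8+/+ arthritic and 7.94, 8.64 and 8.54 in Mmp8-/- arthritic mice. All 6 arthritic mice lay below all 6 control mice, with group means of 9.53 ± 0.34, 9.70 ± 0.12, 8.12 ± 0.32 and 8.37 ± 0.38 in that order. The share of all features that separate in this way was not computed, here or for Ms4a2 and Hdc below. The level of Kit was 2.66-fold lower in arthritic than in control Mmp8+/+ mice (log2 change -1.41, SE 0.22, adjusted p = 0.000625). In Mmp8-/- mice it was 2.51-fold lower (log2 change -1.33, SE 0.22, adjusted p = 0.00105). Leaving out each array in turn gave changes of -1.52 to -1.22 in Mmp8+/+ and -1.46 to -1.11 in Mmp8-/- mice, all of them called. Without the 2 arrays with Xist signal the changes were -1.50 (adjusted p = 0.00281) and -1.27 (adjusted p = 0.00921), and without the array labelled Mmp8-/- control mouse 2 the change in Mmp8-/- mice was -1.32 (adjusted p = 0.00571). Without all 3 arrays, which leaves 1 Mmp8-/- control mouse assumed to vary like the rest, it was -1.19 and no longer called (adjusted p = 0.102).

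Kit is also made by melanocytes, blood progenitors and other cells, and the lists for these cells were read beside it. Of 6 melanocyte markers 4 were tested, 0 were called in either genotype, and the mean of the list lay between 5.33 and 5.86 on all 12 arrays. Pmel and Mlana, proteins of the pigment organelle, changed by 0.12 and 0.38 in Mmp8+/+ and by 0.21 and 0.14 in Mmp8-/- mice and did not pass. Tyr and Tyrp1, which define the lineage, were under the filter, with mean signals of 4.63 and 5.04. Of 5 blood progenitor markers, 2 fell in each genotype, and the list mean was 8.53 to 8.97 on control and 8.16 to 8.48 on arthritic arrays. Hlf, a factor of blood stem cells, fell by 0.60 (adjusted p = 0.0135) in Mmp8+/+ and by 0.50 (adjusted p = 0.0314) in Mmp8-/- mice. Cd34, found on progenitors, endothelium and mast cells, changed by -0.59 (adjusted p = 0.0793) in Mmp8+/+ mice and fell by 0.88 (adjusted p = 0.0143) in Mmp8-/- mice. Ms4a3, made by granulocyte and monocyte progenitors, fell by 1.19 (adjusted p = 0.0368) in Mmp8+/+ mice and changed by -0.30 in Mmp8-/- mice. Of 24 alternatives, the call of Hlf was lost in 2 in Mmp8+/+ and 10 in Mmp8-/- mice, that of Cd34 in 5 and that of Ms4a3 in 10. The part of these cells in the fall of Kit was not tested.

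Of the chains of the immunoglobulin E receptor, the beta chain fell and the alpha chain did not pass the test. Ms4a2 read 5.59, 6.92 and 5.296 in Mmp8+/+ control and 5.42, 6.33 and 5.40 in Mmp8-/- control mice, against 3.93, 4.49 and 3.78 in Mmp8+/+ arthritic and 4.41, 4.74 and 4.38 in Mmp8-/- arthritic mice. The 6 arthritic mice again lay below the 6 control mice, and 1 control mouse of each genotype stood above the others. In the fit without the filter, Ms4a2 was 3.64-fold lower in Mmp8+/+ mice (log2 change -1.86, SE 0.37, adjusted p = 0.00502) and 2.31-fold lower in Mmp8-/- mice (log2 change -1.21, SE 0.37, adjusted p = 0.0424). The first call held in all 24 alternatives, some of which repeat this fit or each other. The second was lost in 13 of 24, among them 8 of the 12 that leave out 1 array, with changes of -1.37 to -0.90 and an adjusted p of up to 0.146. Those 8 arrays were the 3 Mmp8-/- control, the 3 Mmp8-/- arthritic and the Mmp8+/+ arthritic mice 1 and 3. Leaving out the array labelled Mmp8-/- control mouse 2 gave -0.90 (adjusted p = 0.146), and leaving out the 2 arrays with Xist signal gave -1.35 (adjusted p = 0.0851). Over both genotypes together, the change was -1.53 (SE 0.26, adjusted p = 0.000833).

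Fcer1a, the chain that holds the antibody, read 4.61 to 5.20 over the 12 arrays, with overlapping groups. Its change was 0.02 (SE 0.17, adjusted p = 0.951) in Mmp8+/+ and -0.02 (SE 0.17, adjusted p = 0.932) in Mmp8-/- mice. The feature lay at the 19.6th percentile by mean signal, so a change near background may not have been measured. Basophils carry the same receptor. Of 4 basophil markers 3 were tested, and Prss34, a basophil protease, fell by 1.64 (adjusted p = 0.00378) and by 1.27 (adjusted p = 0.0171), the second call being lost without Mmp8-/- control mouse 2 or 3 (adjusted p of up to 0.0640). Mcpt8, the protease that marks basophils, fell by 1.77 (adjusted p = 0.00259) in Mmp8+/+ mice and changed by -0.49 (adjusted p = 0.299) in Mmp8-/- mice. Il3ra, the receptor chain for interleukin 3, rose by 0.63 (adjusted p = 0.0149) in Mmp8+/+ mice, a call lost in 5 of 24 alternatives, and Cd200r3 lay under the filter. The list mean was 6.59 to 7.67 on control and 6.53 to 6.95 on arthritic arrays. The part of basophils in the fall of Ms4a2 was not tested.

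Hdc, the enzyme that makes histamine, rose in both genotypes. It read 9.28, 9.18 and 9.14 in Mmp8+/+ control and 8.72, 8.88 and 9.24 in Mmp8-/- control mice, and 10.64, 10.67 and 10.36 in Mmp8+/+ arthritic and 10.66, 10.71 and 10.43 in Mmp8-/- arthritic mice. Every arthritic mouse exceeded every control mouse by more than 1 log2 unit. Hdc was 2.56-fold higher in arthritic Mmp8+/+ mice (log2 change 1.35, SE 0.16, adjusted p = 8.08e-05) and 3.15-fold higher in arthritic Mmp8-/- mice (log2 change 1.66, SE 0.16, adjusted p = 1.76e-05). Both calls held in all 24 alternatives, some of which repeat the main fit or each other. Without the 3 doubtful arrays the changes were 1.39 (adjusted p = 0.000676) and 1.37 (adjusted p = 0.00957).

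Neutrophils and their precursors also make Hdc. Of 8 neutrophil markers, 1 rose and 2 fell in Mmp8+/+ mice and 1 rose and 0 fell in Mmp8-/- mice. The one that rose was Cxcr2, a chemokine receptor of mature neutrophils, by 1.34 (adjusted p = 0.000515) and 1.72 (adjusted p = 8.01e-05). The 2 that fell in Mmp8+/+ mice were Ltf (change -1.18, adjusted p = 0.0237) and Ngp (change -0.91, adjusted p = 0.0342), both proteins of the secondary granules, with changes of -0.79 and -0.65 that did not pass in Mmp8-/- mice. Their calls were lost in 6 and 9 of 24 alternatives. The list mean was 10.02 to 11.35 on control and 10.31 to 11.13 on arthritic arrays, so the list as a whole overlapped between them. Of 6 granulocyte precursor markers, 3 fell in Mmp8+/+ mice and 0 were called in Mmp8-/- mice. These were Ms4a3, the myeloperoxidase gene Mpo (change -1.28, adjusted p = 0.0329) and Cebpe, a factor of granule formation (change -0.98, adjusted p = 0.00979), with the last 2 calls lost in 10 and 3 of 24 alternatives. Macrophages, in which Hdc can be induced, gave a list of 6 markers of which 1 rose and 2 fell in each genotype. Cd68 rose by 0.65 (adjusted p = 0.0421) and 0.62 (adjusted p = 0.0492), calls that were each lost in 15 of 24 alternatives, while Lyve1 and Cd163, which mark resident macrophages, changed by -2.58 and -1.16 in Mmp8+/+ and by -2.78 and -1.18 in Mmp8-/- mice, all of them called. The part of these cells in the rise of Hdc was not tested.

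**Figure D2:**
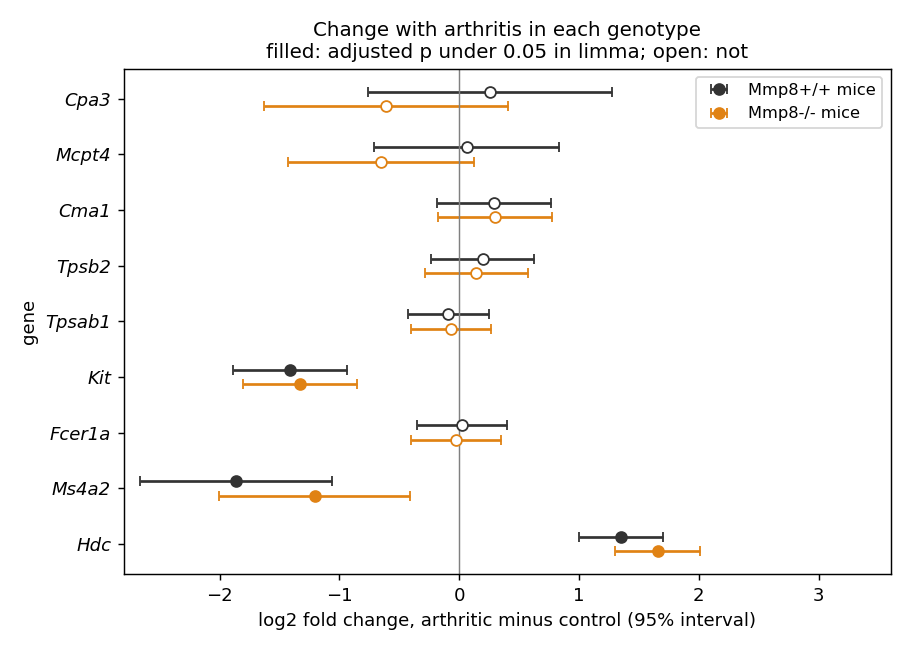
Log2 fold change of each mast cell gene between arthritic and control mice (horizontal axis, with 95% interval) in Mmp8+/+ (black) and Mmp8-/- mice (orange); filled symbols had an adjusted p under 0.05, and Fcer1a and Ms4a2 come from the fit without the filter on signal. Kit and Ms4a2 lie left of 0 and Hdc right of it in both genotypes, and the intervals of Cpa3, Mcpt4, Cma1, Tpsb2, Tpsab1 and Fcer1a span 0.

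Whether Mmp8 alters the mast cell genes was asked within arthritic mice, within control mice and by the interaction of genotype and arthritis. None of the 7 tested members was called in any of these, where 0.00541%, 0% and 0% of tested features were called, and none had an unadjusted p under 0.05, as 523, 596 and 576 features did. The count of members called in these comparisons was 0 in each of the 24 alternatives too. Between arthritic mice, the difference of Mmp8-/- from Mmp8+/+ was 0.25 for Kit (95% interval -0.23 to 0.73), 0.05 for Hdc (interval -0.30 to 0.40) and -0.23 for Cpa3 (interval -1.25 to 0.79). Between control mice it was 0.16 for Kit, -0.25 for Hdc and 0.63 for Cpa3, with intervals that span 0. Without the 3 doubtful arrays, which leaves 1 Mmp8-/- control mouse, these were -0.06, 0.08 and 0.21, so the direction for Kit and Hdc turned. The changes of Kit in the 2 genotypes differed by 0.08 (interval -0.59 to 0.76), those of Hdc by 0.30 (interval -0.19 to 0.80) and those of Ms4a2 by 0.66 (interval -0.47 to 1.79). For Cpa3 the interaction was -0.86 (interval -2.30 to 0.58), the least precise of the 9. Without the 3 doubtful arrays the interaction was 0.31 for Kit, -0.03 for Hdc and -0.44 for Cpa3, and without Mmp8-/- arthritic mouse 1 it was -0.12 for Cpa3, whose difference between arthritic mice then turned to 0.51. Adjusted p in limma was 0.9997 or more for every member in each of these 3 comparisons.

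Cpa3 and Mcpt4 spread widely between mice of one group, although not in every group. The pooled SD within groups was 0.757 for Cpa3 and 0.561 for Mcpt4, at the 99.5th and 98.1st percentile of all tested features, whose median was 0.231. Mmp8-/- arthritic mouse 1 carried much of it, and without that mouse, an alternative chosen after seeing the data, the SD was 0.431 and 0.444, at the 95.3rd and 95.8th percentile, against a median of 0.212. Deviations from the group mean are given for Cpa3, then Mcpt4. Mmp8+/+ control mouse 1, with Xist signal, lay at -0.74 and -0.78, and mouse 2 at 0.71 and 0.61. Mmp8-/- control mouse 1, with Xist signal, lay at -0.26 and -0.33, and mouse 2, with Mmp8 signal, at 0.31 and 0.42. The spread and the correlations below were not recomputed without the 3 doubtful arrays. In Mmp8+/+ arthritic mice the SD was 0.170 for Cpa3 and 0.0961 for Mcpt4. Pooled over all 12 arrays, it was 0.305 for Kit, 0.305 for Cma1, 0.258 for Tpsb2, 0.177 for Hdc and 0.158 for Tpsab1. Across the 12 arrays, Cpa3 and Mcpt4 had a Pearson r of 0.95 and a Spearman rho of 0.86. After each group's mean was taken off, r was 0.95 and rho 0.95. With no group mean taken off, r over 10 arrays, without the 2 farthest from the median in Cpa3, was 0.80. Kit had r of 0.68 with Cpa3 and 0.61 with Mcpt4 after the group means were taken off, and Fcer1a had 0.69 and 0.79 with them. Over all 12 arrays these were 0.35 and 0.46 for Kit and 0.58 and 0.63 for Fcer1a. Over 10 arrays, without the 2 farthest in Cpa3 or in Mcpt4, they were 0.29 and 0.61 for Kit and 0.09 and 0.25 for Fcer1a, again with no group mean taken off. Within groups, Hdc had -0.16 with Cpa3 and -0.24 with Mcpt4. Over all 12 arrays Kit and Hdc had r of -0.93, and -0.30 within groups. The tryptase genes Tpsb2 and Tpsab1 had r of -0.02 over all arrays and 0.08 within groups, and the chymase genes Mcpt4 and Cma1 had -0.17 and 0.02. Of 36 pairs of members, 8 had an r over 0.6 within groups, and the median was 0.18. The points share arrays, dissection and normalization, and these values are descriptions.

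**Figure D3:**
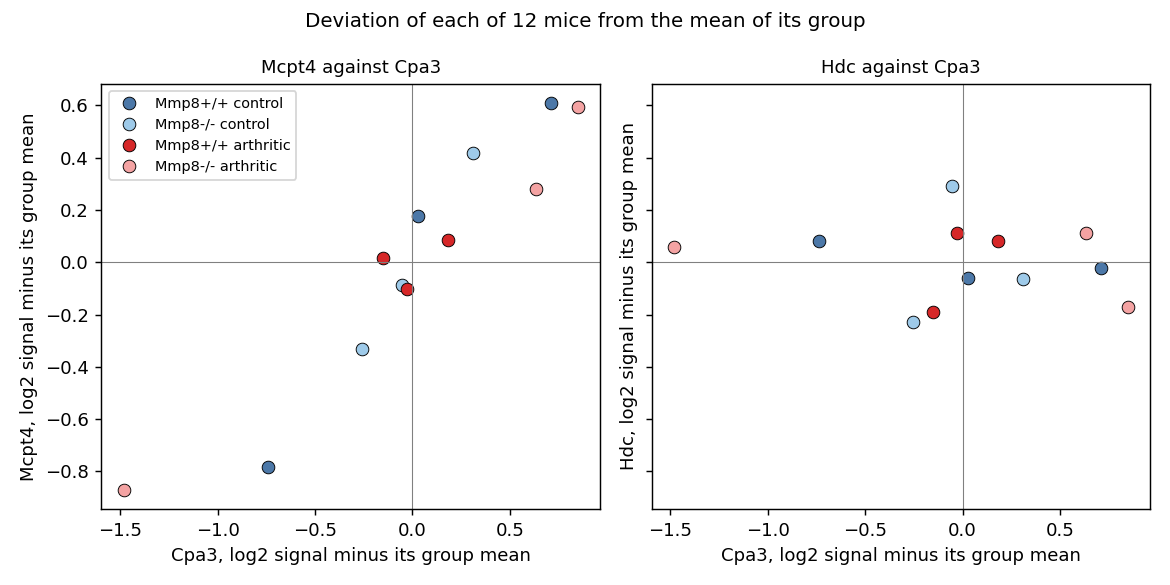
Each of the 12 mice by its log2 signal of Cpa3 minus the mean of its group (horizontal axis) against the same quantity for Mcpt4 (left) or Hdc (right), coloured by group. Mcpt4 runs along the diagonal with Cpa3, from an arthritic Mmp8-/- mouse and a Mmp8+/+ control mouse at the lower left to mice of the same groups at the upper right, while Hdc stays between -0.23 and 0.29 over the whole range of Cpa3.

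The genes whose pattern over the 12 arrays was most like the mean standardized signal of Cpa3, Mcpt4, Cma1 and Tpsb2 were Slc6a8 (r = 0.88), Xbp1 (r = 0.87), Lyplal1 (r = 0.85), Cdkn2aip (r = 0.84), E2f4 (r = 0.84), Castor1 (r = 0.84), Fam178b (r = 0.83) and Dctn4 (r = 0.83). The 4 members themselves had r of 0.85 (Cpa3), 0.73 (Mcpt4), 0.51 (Tpsb2) and 0.30 (Cma1) with that score, so it followed Cpa3 and Mcpt4 more than the other 2. These 8 are the top of all tested features that carry 1 symbol and are not members, over 12 points, and are given as a description.

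The wider pathway was read from 7 lists with 71 genes, of which 57 were tested. In Mmp8+/+ mice 8 rose, 6 fell and 43 did not pass the test. In Mmp8-/- mice 7 rose, 10 fell and 40 did not pass. Of all tested features, 18.9% were called in Mmp8+/+ and 21.6% in Mmp8-/- mice. Averaged over the genotypes, 19 of the 57 rose, 16 fell and 22 did not pass. There 19.5% of all tested features were called higher and 22.7% lower. The median change of the 57 was 0.17 in Mmp8+/+ and 0.13 in Mmp8-/- mice, against 0.01 and -0.01 over all tested features. Of 8 tested growth factors and cytokine receptors, 5 rose and 0 fell in Mmp8+/+ mice, and 3 rose and 1 fell in Mmp8-/- mice. Il33, an alarmin that activates mast cells, rose by 1.51 (adjusted p = 0.00305) and 1.40 (adjusted p = 0.00538). Il4ra, the interleukin 4 receptor chain, rose by 1.94 and 1.75, with every arthritic mouse at 10.98 or more and every control mouse at 9.79 or less. Csf2rb, the shared signalling chain of the receptors for interleukins 3 and 5 and for GM-CSF, rose by 1.22 (adjusted p = 0.00233) in Mmp8+/+ mice and changed by 0.67 (adjusted p = 0.0520) in Mmp8-/- mice. Csf2rb2, its mouse copy for interleukin 3, rose by 0.66 and 0.59. Kitl, stem cell factor itself, is named as the ligand of Kit, a choice made after its values were seen, and changed by -0.32 (adjusted p = 0.357) in Mmp8+/+ mice and fell by 0.81 (adjusted p = 0.0282) in Mmp8-/- mice.

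Of 9 transcription factors of the mast cell lineage, 1 rose and 1 fell in Mmp8+/+ mice, and 1 rose and 2 fell in Mmp8-/- mice. Gata1 fell by 1.11 (adjusted p = 0.00391) in Mmp8+/+ mice and changed by -0.31 (adjusted p = 0.330) in Mmp8-/- mice. Gata1 is also a factor of red cell precursors, and 2 of 5 erythroid markers, Slc4a1 (-2.05) and Rhag (-2.15), fell in Mmp8+/+ mice and 0 in Mmp8-/- mice, calls lost in 6 and 9 of 24 alternatives, with list means of 6.22 to 8.30 on control and 6.07 to 7.17 on arthritic arrays. Mitf, the factor that drives many mast cell genes, changed by -0.54 (adjusted p = 0.0645) and fell by 0.86 in Mmp8-/- mice (adjusted p = 0.00679). Cebpa, a factor of granulocytes and fat cells, changed by -0.56 (adjusted p = 0.0800) and fell by 0.86 (adjusted p = 0.0118) in Mmp8-/- mice. Spi1, which encodes the myeloid factor PU.1, rose by 0.92 (adjusted p = 0.00285) and 0.60 (adjusted p = 0.0311). Gata2, which mast cells need, changed by -0.03 and 0.02 and did not pass.

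Of 15 tested genes that carry the signal from the immunoglobulin E receptor, 0 rose and 1 fell in Mmp8+/+ mice. In Mmp8-/- mice 1 rose and 2 fell, and the medians were 0.03 and 0.01. Of all tested features, 18.9% and 21.6% were called in these comparisons. Averaged over the genotypes, 4 of the 15 rose and 4 fell, where 42.1% of all tested features were called. Fyn, a kinase next to the receptor, fell by 0.57 (adjusted p = 0.0260) and 0.60 (adjusted p = 0.0207). Plcg1, a phospholipase of the pathway, fell by 0.57 and Cd300a, an inhibitory receptor, rose by 0.63, both in Mmp8-/- mice. Fcer1g, the gamma chain, changed by 0.45 and 0.58 and did not pass in either genotype, but rose by 0.52 (adjusted p = 0.0287) averaged over the genotypes. Of 5 other surface receptors, Cd63, a granule membrane protein of many cells, rose by 1.05 and 1.17. Enpp3, an ectoenzyme of mast cells and basophils, changed by -0.83 (adjusted p = 0.0634) and fell by 1.35 (adjusted p = 0.00614) in Mmp8-/- mice, and Mrgprb1, of the receptor family of connective tissue mast cells, changed by -0.58 (adjusted p = 0.0632) and fell by 0.94 (adjusted p = 0.00597).

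Among mediators, Hpgds, which makes prostaglandin D2, fell by 0.92 (adjusted p = 0.0324) and 0.86 (adjusted p = 0.0417). Ltc4s, the leukotriene C4 synthase, fell by 0.88 (adjusted p = 0.0113) and 0.77 (adjusted p = 0.0220), and Alox5, the enzyme that starts leukotriene synthesis, fell by 0.81 (adjusted p = 0.00696) in Mmp8-/- mice. Ptgs2, the inducible cyclooxygenase of many cells, rose by 2.35 and 2.54. Of the 9 tested genes of this list, 1 rose in each genotype, and 2 fell in Mmp8+/+ and 3 in Mmp8-/- mice. Hnmt, which inactivates histamine, fell by 0.81 (adjusted p = 0.0317) in Mmp8+/+ mice and changed by -0.37 in Mmp8-/- mice. It was the only gene called within a genotype among 5 tested histamine receptors and clearance genes. Averaged over the genotypes, 1 of these 5 rose and 1 fell. Of 6 other granule genes tested, Ctsg fell by 1.33 (adjusted p = 0.0162) in Mmp8+/+ mice, a protease that neutrophil precursors make as well. Slc18a2, which loads histamine into granules, changed by -0.56 and -0.34 and did not pass in either genotype. Averaged over the genotypes its change was -0.45 and was called (adjusted p = 0.0317). Calls of Csf2rb, Csf2rb2, Gata1, Il33, Il4ra, Ptgs2, Spi1 and Cd63 in Mmp8+/+ mice, and of Alox5, Cd63, Cebpa, Enpp3, Il33, Il4ra, Mitf, Mrgprb1 and Ptgs2 in Mmp8-/- mice, held when any 1 array was left out. Those of Ctsg, Fyn, Hnmt, Hpgds and Ltc4s in Mmp8+/+ mice, and of Spi1, Csf2rb2, Fyn, Plcg1, Cd300a, Hpgds and Ltc4s in Mmp8-/- mice, were lost without at least 1 of the 12 arrays. The calls of Hpgds were lost in 9 and 16 of 24 alternatives, that of Hnmt in 9 and that of Spi1 in Mmp8-/- mice in 9. Of the calls that held without any 1 array, that of Mitf in Mmp8-/- mice was lost in 2 of 24 alternatives. Lost in 1 were those of Cd63 in Mmp8+/+ mice and of Alox5, Cd63, Cebpa, Enpp3, Il33 and Mrgprb1 in Mmp8-/- mice.

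**Figure D4:**
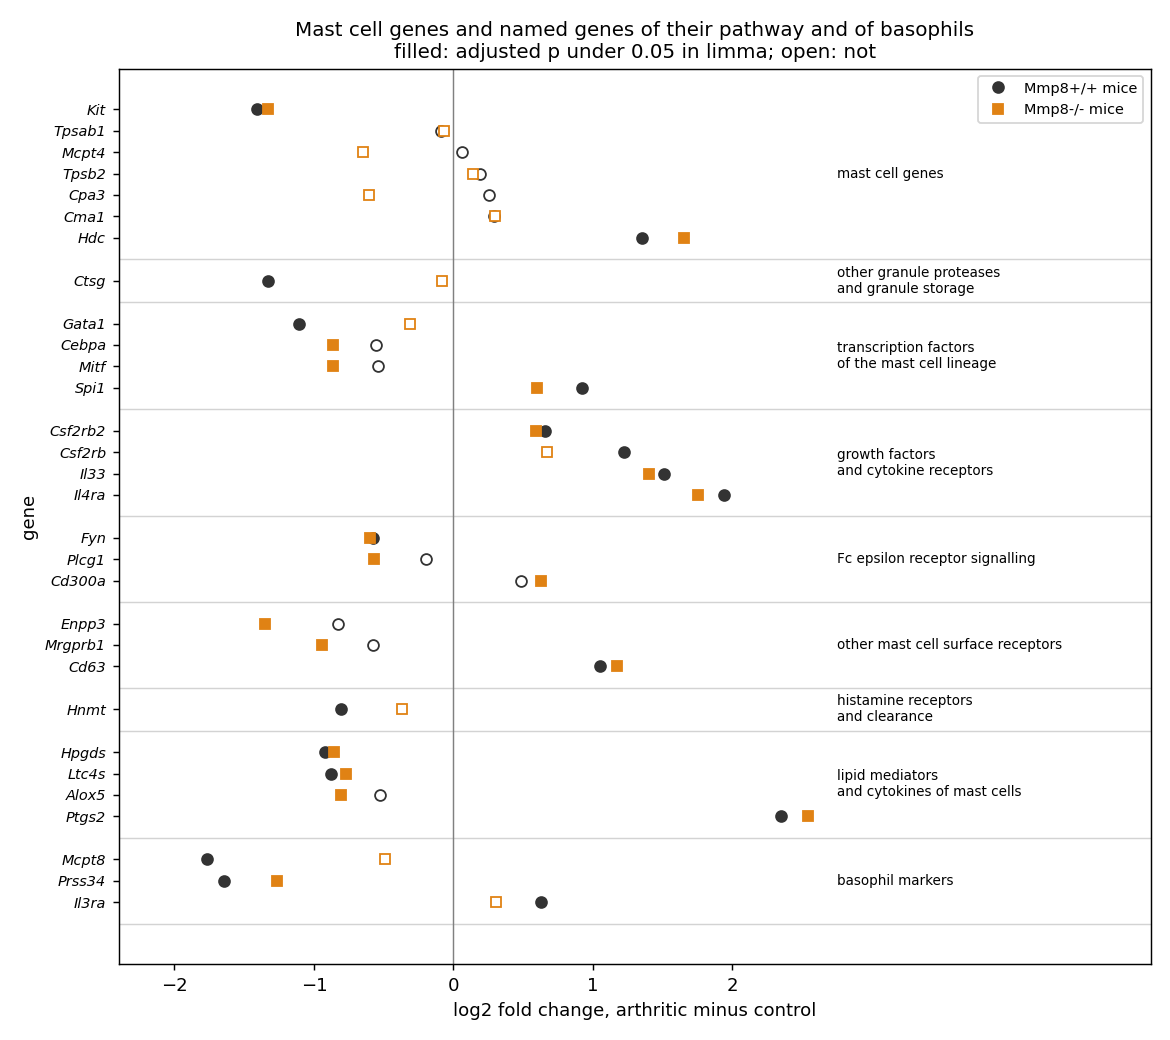
Log2 fold change between arthritic and control mice (horizontal axis) of the 7 tested mast cell genes and of named genes of 7 pathway lists and the basophil list, in Mmp8+/+ (black circles) and Mmp8-/- mice (orange squares); filled symbols had an adjusted p under 0.05. Ptgs2 (2.35 and 2.54) and Il4ra (1.94 and 1.75) lie farthest right, Hdc (1.35 and 1.66) next to Il33 (1.51 and 1.40), and Kit (-1.41 and -1.33) and Prss34 (-1.64 and -1.27) are filled on the left in both genotypes.

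Other tissue of the joint moved with arthritis too. All 6 adipocyte markers, Fabp4, Cidec, Plin1 and Lep among them, fell in both genotypes, with a median change of -2.10 and -2.30, and the list mean was 8.99 to 9.81 on control and 7.26 to 7.78 on arthritic arrays. Of 6 skeletal muscle markers, 6 fell in Mmp8+/+ and 3 in Mmp8-/- mice. Of 24 alternatives, the Mmp8-/- calls of Acta1 and Ckm were lost in 14 and 15 and that of Myh1 in 2, and the Mmp8+/+ calls of Acta1, Ckm and Tnnt3 in 9, 9 and 6. Of 6 endothelial markers, 1 fell in Mmp8+/+ (Tek) and 2 in Mmp8-/- mice (Tek and Vwf), and the list mean overlapped, at 9.33 to 9.81 on control and 9.05 to 9.71 on arthritic arrays. Of 6 synovial fibroblast markers, 2 rose in each genotype (Pdpn and Thy1) and 1 fell in Mmp8-/- mice (Pdgfra). Of 8 epidermal markers, 0 were called in Mmp8+/+ and 2 fell in Mmp8-/- mice (Krtdap and Sbsn). Their list mean was 7.83 to 9.18 in Mmp8+/+ control and 7.61 to 9.23 in Mmp8-/- control mice. It was 8.47 to 9.31 in Mmp8+/+ arthritic and 7.31 to 7.70 in Mmp8-/- arthritic mice. Between arthritic mice, Krtdap was the 1 feature called, lower in Mmp8-/- mice, a call lost in 9 of 24 alternatives. The share of each tissue in the dissected joint was not measured, and its part in the changes of the mast cell genes was not tested.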

How the data were processed

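RNA from the ankle of 12 mice, 3 per group, was hybridized to the Affymetrix Mouse Gene 1.0 ST array, and the replicates are separate mice. The authors deposited log2 signals for 28853 features, normalized by Robust Multichip Average, and the submitters' processing notes also name Partek. Their removal of values below background cannot be repeated from these values. Of the features, 21789 carried 1 gene symbol in the platform annotation, 1621 carried more than 1 and 5443 were unnamed. Precision is set by the 3 arrays per group.

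A linear model with a mean for each of the 4 groups (8 residual degrees of freedom, no covariate) was fitted by limma 3.58.1 (R 4.3.3) to the 18479 named features with a mean log2 signal of at least 5.3. P-values were two-sided and adjusted by Benjamini-Hochberg, and each adjusted p of a gene is from limma. Members and lists were chosen with earlier results of these data known. From each list, up to 4 called genes with the smallest p were named, or 2 with the highest signal where none was called, and Kitl, Gata2, Fcer1g, Slc18a2, Tyr and Tyrp1 were added for their roles. Alternatives were other variance models, filters and scalings, and the removal of arrays. The code was tested on simulated data. Promoters came from a RefSeq table on GRCm38.p6, and figures were drawn with matplotlib 3.10.9.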

Additional observations from a re-analysis of the deposited data

How the results depend on the processing

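Every fitted change and difference of the 9 genes was recomputed under 24 alternatives, 12 that leave out 1 array and 12 of other kinds. Some of these could not differ. Each of the 9 has 1 feature, so averaging the features of a symbol repeated the main fit. A fit to the compared groups alone repeated it for the genotype mean and the interaction. The fit without the filter repeated it for Fcer1a and Ms4a2. Leaving out Mmp8-/- control mouse 2 was counted in both kinds. The tallies that follow include these repeats. Of 1296 values, 1282 kept their side of the threshold, 14 lost a call, 0 gained one and 0 called values reversed, while 82 values that were not called changed sign. The number of mast cell genes called in Mmp8-/- mice went from 2 to 1 without the 3 doubtful control arrays, because Kit was lost (adjusted p = 0.102), and 1 Mmp8-/- control mouse is left in that fit. The other 13 lost calls were those of Ms4a2 in Mmp8-/- mice. No paired analysis was possible because the labels give no replicate numbers, and the numbers used here follow the order of deposit. Signals near background limit Fcer1a, Ms4a2, Cma1 and Tpsab1, and 3 mice per group limit Cpa3 and Mcpt4.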
